A study of Bos indicus with 9 samples.

Results

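The genes described here build the extracellular matrix of the corpus luteum, the gland that forms from an ovulated follicle and secretes progesterone. They were chosen by name: every collagen chain that the array's probe table lists as the 1 gene of a probe set, together with 37 listed genes of laminins, nidogens, elastic fibres, proteoglycans, matricellular proteins, crosslinking enzymes and fibroblast surface proteins. Of the listed names 34 were matched, and with 23 collagen chains this gave 57 genes of 9150 with a usable probe set. LOXL2, CTHRC1 and FBLN2 had no match. A gene with several probe sets, which 28 of the 57 had, was represented by the probe set with the highest mean over the 9 arrays. The selection rule uses gene names and mean signals, not group differences, though it was written with earlier results of these data known.

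Fibrillar collagens assemble into the cable-like fibrils that give connective tissue its strength. Collagen IV, laminins, nidogens and perlecan form basement membranes, the thin sheets under endothelium and epithelium, and elastin with fibrillin microfibrils lets a tissue recoil. After ovulation the basement membrane between granulosa and theca breaks down, capillaries and fibroblasts invade, and the matrix is rebuilt as the corpus luteum grows.

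The samples were corpora lutea of Nelore crossbred cows (Bos indicus) aged 2 to 5 years, taken at slaughter on day 6 after ovulation. All cows had their cycles synchronised by progesterone devices with estradiol benzoate. The 3 control cows received nothing further. The 3 stimulated cows were given 400 IU of equine chorionic gonadotropin (eCG, a mare placental hormone that acts on ovarian gonadotropin receptors) on protocol day 8, and the 3 superovulated cows 2000 IU on protocol day 4. Dose and day of eCG thus differed together, and their parts cannot be told apart. The labels call the animals of a group biological replicates, and each gave 1 array. How many corpora lutea of a superovulated cow went into its RNA is not given in the sources used here. Values are signals read as log2, and they compare a gene between animals but do not rank different genes.

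Array medians lay between 4.19 and 4.26. Correlations over probe sets were 0.987 to 0.994 within groups and 0.986 to 0.993 between them. Steroidogenic genes of luteal cells were bright on all arrays, with STAR, which moves cholesterol into mitochondria, between 14.55 and 14.84. Superovulated 2 stood apart from the other arrays. Its median correlation with them was 0.988, against 0.990 or more for each of the rest. Its actin probe sets had the lowest 3' minus 5' difference, a measure of RNA quality (-0.64, against -0.53 to -0.21 elsewhere). A lower value means less signal at the 3' end relative to the 5' end, and is not read as poorer RNA. Superovulated 2 was not the lowest for the controls ef1a (-1.83, against -1.90 in control 3) or gapd (-0.039, against -0.084 in control 1). It had the highest signal for 6 of 11 markers of surface epithelium and oviduct, among them KRT18 at 8.79 against 4.46 to 5.77 and KRT19 at 5.03 against 2.39 to 2.61. It also had the lowest signal for 5 of 9 steroidogenic markers. Results that rest on this animal are therefore given with and without it. In whole tissue, fewer cells of a type and less RNA per cell cannot be told apart.

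None of the 57 matrix genes passed the test after adjustment in any comparison. The test was limma's moderated test with Benjamini-Hochberg adjustment over 23992 probe sets, in which an adjusted p under 0.05 counts as passing. The smallest adjusted p of a matrix gene was 0.528 for stimulated against control, 0.672 for superovulated against control and 0.361 for superovulated against stimulated, and 0.480 in the F test over the 3 groups. In the whole fit PRSS2, a trypsinogen gene that is no matrix gene, was the 1 gene called in any comparison, so that the share of genes called was 0.0109% for stimulated against control, for superovulated against stimulated and in the F test, and 0% for superovulated against control. All group differences below are therefore given as measured sizes, with the unadjusted p as a description.

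At an unadjusted p under 0.05, 1 of 57 matrix genes (1.75%) differed between stimulated and control animals, against 7.28% of all genes. Between superovulated and control animals the count was 2 (3.51%, against 5.27% of all genes), and between superovulated and stimulated animals it was 4 (7.02%, against 9.07%). In the F test it was 3 (5.26%, against 7.53%). Each share was below the share over all genes in this fit of all 9 arrays, but not in every run that left out an animal. The counts moved with single animals. The first was 8 of 57 without stimulated 2, a larger share than the 7.34% of all genes in that run. It was 4 without control 1 or control 2, 3 without stimulated 1 and 2 without stimulated 3. The second was 1 without superovulated 2 (against 4.71% of all genes), control 1 or control 3. It was 3 without stimulated 2 (against 5.56%), and 4 without control 2, stimulated 1 or superovulated 3. The last pairwise count was 10 of 57 without stimulated 2, a larger share than the 10.4% of all genes in that run. It was 8 without superovulated 3 and 3 without superovulated 1. It was 2 without superovulated 2 (against 7.6%) or stimulated 3. Counts without a share beside them are not read as results about the matrix genes. Groups did not overlap for 4 matrix genes between stimulated and control animals (7.02%, against 12.9% of all genes), for 6 between superovulated and control animals (10.5%, against 9.6%) and for 2 between superovulated and stimulated animals (3.51%, against 12.9%).

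The larger pattern lay between animals, not between groups. The median standard deviation within groups was 0.44 over the matrix genes, 0.18 over all genes and 0.21 over genes of probe sets brighter than the median of 4.24, a level that 49 of the 57 matrix genes exceeded. Superovulated 2 had the highest signal of the 9 arrays for 31 of the 57 genes (54.4%, against 15.7% of all genes). Stimulated 1 had the lowest signal for 20 (35.1%, against 9.74% of all genes). Animals with the number 2 were the high ones in all 3 groups: 48 of 57 genes lay above their own mean in superovulated 2, 47 in stimulated 2 and 37 in control 2, against 8 to 26 in each of the other 6 animals. The 3' to 5' difference of actin was also lowest in these 3 animals, at -0.64, -0.46 and -0.53, against -0.35 to -0.21 in the other 6, while those of ef1a and gapd did not set them apart. The part of RNA quality in the pattern was not tested. The median log2 difference over the 57 genes was -0.05 for stimulated minus control, 0.10 for superovulated minus control and 0.14 for superovulated minus stimulated. Leaving out 1 animal turned the sign of each. The first ranged from -0.21 without stimulated 2 to 0.09 without stimulated 1, the second from -0.04 without superovulated 2 to 0.20 without superovulated 3, and the last from -0.04 without superovulated 2 to 0.31 without stimulated 2. Without stimulated 1 the last was 0.02.

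**Figure D1:**
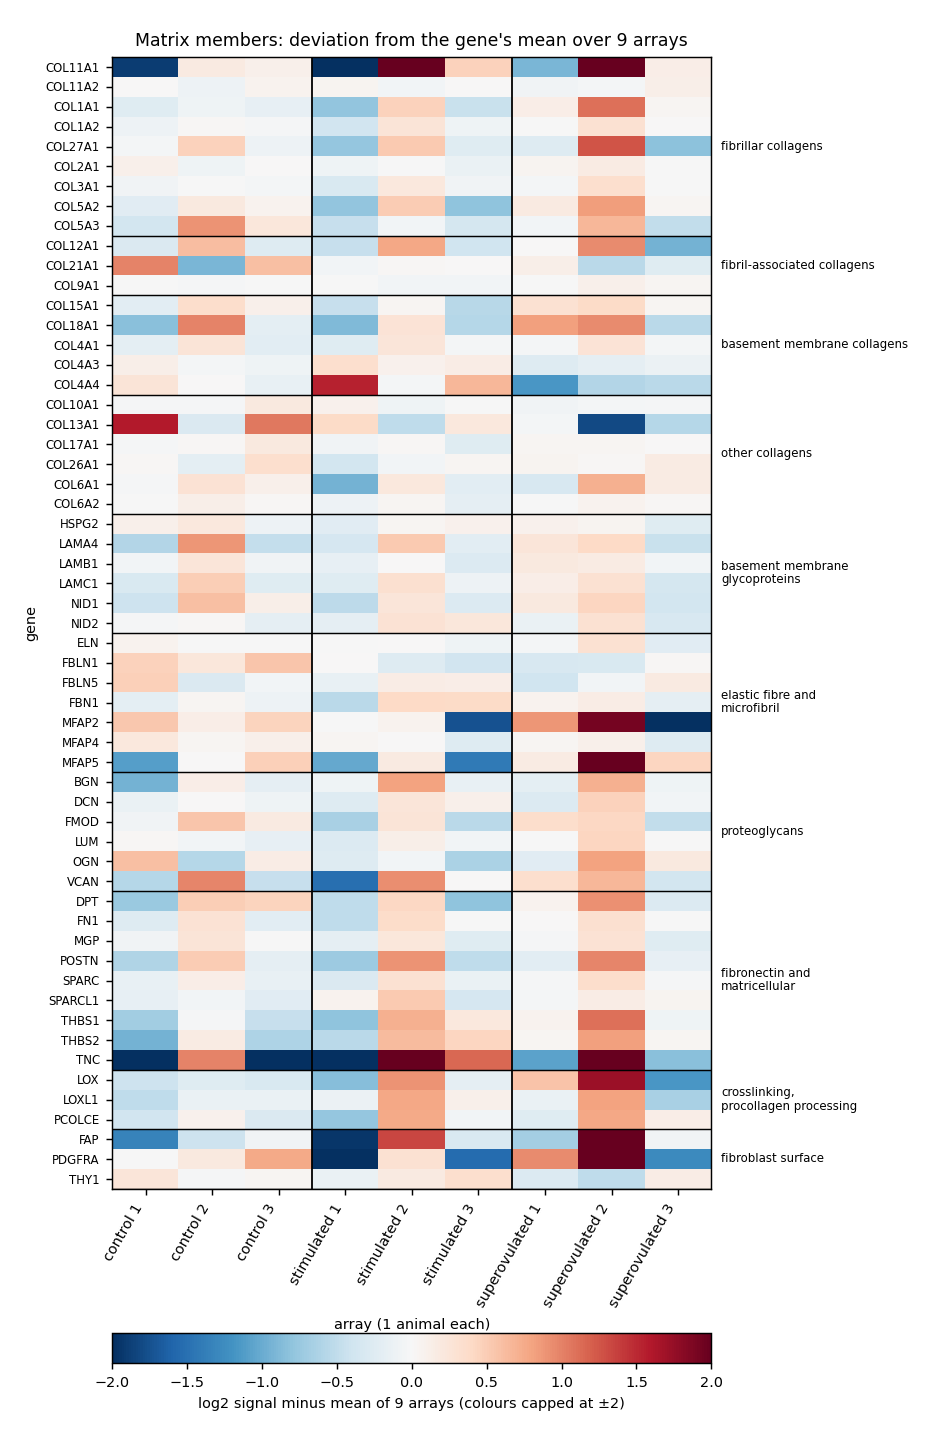
Heat map of the 57 matrix genes (rows, ordered by role) on the 9 arrays (columns, by group), with colour for the log2 signal minus the gene's mean over the 9 arrays, capped at 2 either way. The column of superovulated 2 holds the highest value for 31 genes and that of stimulated 1 the lowest for 20.

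Fibrillar collagens had higher means in superovulated than in stimulated animals for 9 of 9 chains, against 4872 of 9150 genes. Of these chains COL11A2 and COL2A1 had signals below the array medians, with differences of 0.01 and 0.14. The median log2 difference of the 9 was 0.23, against 0.01 over all genes, and 0 of the 9 reached an unadjusted p under 0.05. The higher direction was not particular to fibrillar collagens. It held for 43 of the 57 matrix genes, 18 of 21 genes that assemble the matrix (median 0.25) and 11 of 12 pericyte and smooth muscle markers (median 0.29). Endothelial markers were higher for 4 of 13 and macrophage markers for 2 of 11. Against control the fibrillar median was 0.13 in superovulated animals, with 7 of 9 positive. In stimulated animals it was -0.09, the value of the dim COL2A1, with 7 of 9 negative. The stimulated median was 0.03, with 5 of 9 positive, without stimulated 1 and -0.46 without stimulated 2. Superovulated 2 was the highest array for 7 of the 9 chains. Without it, the median of superovulated minus stimulated was 0.04, with 7 of 9 positive, and that of superovulated minus control was 0.03. Without stimulated 1, the lowest animal for 4 of the 9, the median of superovulated minus stimulated was also 0.04. It was 0.45 without stimulated 2 and 0.59 without superovulated 3.

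COL3A1 encodes type III collagen, the chain of the fine reticular fibrils of soft tissue, and had the brightest probe set of this role. Its log2 signals were 14.56, 14.60 and 14.58 in control, 14.32, 14.83 and 14.54 in stimulated, and 14.58, 14.95 and 14.62 in superovulated animals 1 to 3. The 3 controls lay close together inside the range of the stimulated animals, and superovulated 2 was the highest. Superovulated minus stimulated was 0.15 (SE 0.14), and a second COL3A1 probe set gave 0.11.

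The chains of type I collagen, the main fibril of dense connective tissue, were named after their values were seen. COL1A1 had 11.60, 11.76 and 11.68 in control, 11.05, 12.30 and 11.40 in stimulated, and 11.98, 12.94 and 11.87 in superovulated animals. All 3 superovulated animals were above all 3 controls, while stimulated animals lay on both sides, and the difference from control was 0.59 (SE 0.37, unadjusted p = 0.150 in limma's test). COL1A2, the partner chain, had 13.72, 14.38 and 14.02 in stimulated and 14.10, 14.42 and 14.12 in superovulated animals, a difference of 0.17 (SE 0.16). COL5A2, which helps set fibril diameter, had 10.74, 12.04 and 10.72 in stimulated and 11.71, 12.37 and 11.57 in superovulated animals, a difference of 0.72 (SE 0.37). Stimulated 2 lay above 2 of the superovulated animals for COL1A1 and COL5A2.

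COL11A1, a minor chain of fibrils best known from cartilage, varied most among the fibrillar chains, over 5.10 log2 units. It had 6.39, 8.47 and 8.40 in control, 5.67, 10.38 and 8.76 in stimulated, and 7.38, 10.77 and 8.43 in superovulated animals. The animals numbered 2 were the highest of their group in all 3 groups, and the groups overlapped. COL11A2 and COL2A1, chains of cartilage fibrils, stayed at dim signals between 2.95 and 3.53 on all arrays.

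Among fibril-associated collagens, which sit on the surface of fibrils, COL12A1 had the brightest probe set. It had 10.50, 11.41 and 10.54 in control, 10.33, 11.55 and 10.39 in stimulated, and 10.80, 11.74 and 9.84 in superovulated animals. The animal numbered 2 was again the highest in each group, and the group means differed by at most 0.06. COL21A1 ran the other way in control, where animal 2 was the lowest of all 9 arrays at 7.76 against 9.66 and 9.28. COL9A1, a cartilage chain, lay between 2.04 and 2.21 throughout.

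Basement membrane collagens held 3 of the 4 genes at an unadjusted p under 0.05 between superovulated and stimulated animals, in opposite directions. COL15A1 encodes a collagen that links basement membranes to the fibrils beneath them. Its signals were 12.82, 13.38 and 13.13 in control, 12.56, 13.08 and 12.48 in stimulated, and 13.34, 13.41 and 13.08 in superovulated animals. Stimulated animals 1 and 3 were the lowest of all 9, and stimulated 2 equalled superovulated 3. Superovulated minus stimulated was 0.57 (SE 0.20, unadjusted p = 0.0218, adjusted p = 0.459 in limma with Benjamini-Hochberg adjustment), and the second probe set of COL15A1 gave 1.12 (SE 0.32). The unadjusted p of the first probe set was 0.0676 without superovulated 2, 0.0592 without superovulated 1, 0.0697 without stimulated 1 and 0.0768 without stimulated 3 in limma's test.

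COL4A4 and COL4A3 encode chains of the specialised collagen IV network known from the kidney filter, and lie head to head in mammalian genomes. COL4A4 had 5.12, 4.87 and 4.71 in control, 6.40, 4.82 and 5.53 in stimulated, and 3.70, 4.27 and 4.32 in superovulated animals. All 3 superovulated animals were below all 6 others. Superovulated minus stimulated was -1.49 (SE 0.37, unadjusted p = 0.00405, adjusted p = 0.367 in limma with Benjamini-Hochberg adjustment), and superovulated minus control was -0.80 (SE 0.37). COL4A3 had 2.50, 2.35 and 2.31 in control, 2.72, 2.47 and 2.53 in stimulated, and 2.13, 2.20 and 2.26 in superovulated animals. The order of the groups was the same, at a signal below the array median, and superovulated minus stimulated was -0.37 (SE 0.09, unadjusted p = 0.00343, adjusted p = 0.361 in limma with Benjamini-Hochberg adjustment). The second probe sets of COL4A3 and COL4A4 gave 0.03 and 0.04. For COL4A3 the mean signal of the second was 2.32, near the 2.39 of the first. Its difference thus stood in 1 of 2 probe sets that were about equally dim. For COL4A4 the second had a mean of 2.37, against 4.86 for the first. Neither gene followed the animals numbered 2.

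COL4A1, a chain of the collagen IV network found in nearly all basement membranes, was the brightest of this role. It had 13.44, 13.88 and 13.42 in control, 13.38, 13.87 and 13.59 in stimulated, and 13.59, 13.90 and 13.59 in superovulated animals. Animals numbered 2 lay at 13.87 to 13.90 in all 3 groups and the others at 13.38 to 13.59, so the spread between animals exceeded the group differences of 0.04 to 0.12. COL18A1, the precursor of endostatin, ranged from 5.28 to 7.15 with overlapping groups.

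Since same-numbered stimulated and superovulated animals deviated together from their group means, their comparison was also fitted with the number as a block. That fit used all 9 arrays, controls included, while the main fit had no block. The pairing was judged from these same data, and the labels do not say what the number stands for. The block raised the count of matrix genes at an unadjusted p under 0.05 from 4 to 9 of 57. That share was larger than the 12% of all genes under the block. The 9 were the 4 of the fit without the block (COL15A1, COL4A3, COL4A4 and MFAP5, described with the elastic fibre genes) with COL1A1, COL5A2, COL6A1 and LAMB1 higher and COL13A1 lower in superovulated animals. In the blocked fit COL1A1 had an unadjusted p of 0.0249 and COL5A2 of 0.0185, and their adjusted p values by limma with Benjamini-Hochberg adjustment were 0.381 and 0.355. No matrix gene passed after adjustment in the blocked fit either.

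**Figure D2:**
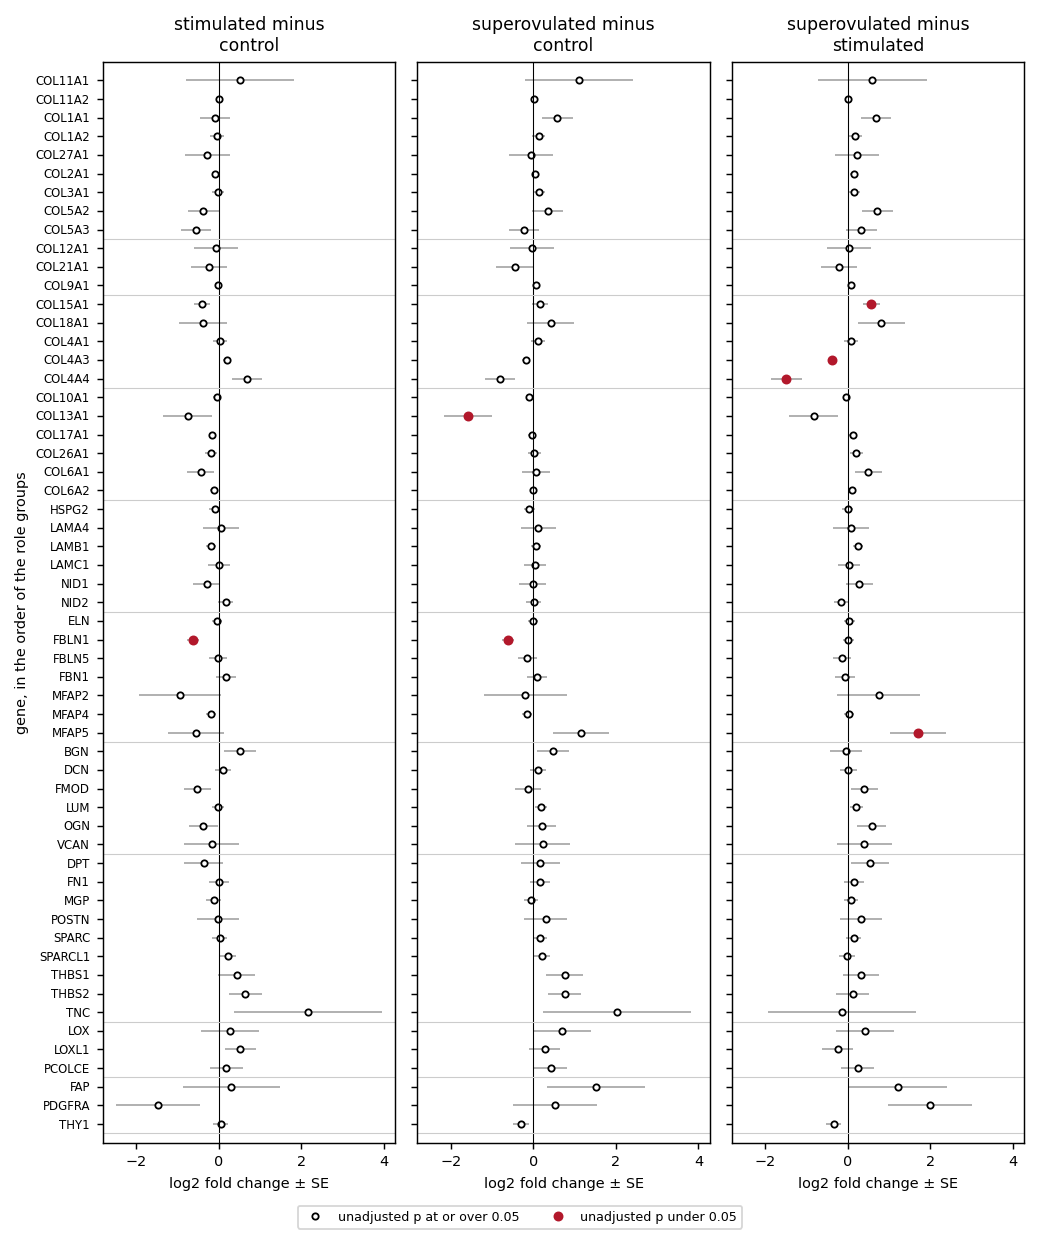
Log2 fold changes (points, with standard error bars from the fit) of the 57 matrix genes in role order, for the 3 comparisons. Filled points have an unadjusted p under 0.05, and 0 of the 57 pass after adjustment.

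Among the remaining collagens, COL13A1 had the largest difference from control. It encodes a collagen that spans the cell membrane at sites of adhesion. Its signals were 9.96, 8.09 and 9.43 in control, 8.75, 7.86 and 8.58 in stimulated, and 8.33, 6.57 and 7.80 in superovulated animals. The animal numbered 2 was the lowest in each group, the reverse of most matrix genes, and control 2 lay inside the superovulated range. Superovulated minus control was -1.59 (SE 0.58, unadjusted p = 0.0269, adjusted p = 0.801 in limma with Benjamini-Hochberg adjustment). Without superovulated 2 it was -1.09 (unadjusted p = 0.0902), without control 1 -1.19 (unadjusted p = 0.0931) and without control 3 -1.45 (unadjusted p = 0.0751) in limma's test. COL6A1, a chain of the beaded filaments that surround cells, had 12.12, 12.43 and 12.24 in control, 11.20, 12.35 and 11.92 in stimulated, and 11.82, 12.85 and 12.30 in superovulated animals. It followed the more usual order, with stimulated 1 lowest and superovulated 2 highest. COL10A1, COL17A1, COL26A1 and COL6A2 had differences of at most 0.21 in size in the 3 comparisons.

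Basement membrane glycoproteins differed little between groups, with medians of -0.05, 0.03 and 0.05 for stimulated minus control, superovulated minus control and superovulated minus stimulated. Each turned sign when 1 animal was left out: the ranges were -0.18 (without stimulated 2) to 0.09 (without control 2), -0.12 (without superovulated 2) to 0.20 (without control 2) and -0.09 (without stimulated 1) to 0.27 (without superovulated 3). Here the highest array was control 2, for 5 of 6 genes, and superovulated 2 was the highest for 1. NID2, a nidogen that bridges laminin and collagen IV, had 13.31, 13.35 and 13.15 in control, 13.14, 13.62 and 13.55 in stimulated, and 13.19, 13.63 and 13.01 in superovulated animals. The groups overlapped over most of their ranges. LAMA4, the laminin chain of vessel walls, had 10.94 in control 2 against 9.47 and 9.58 in the other controls, and NID1, the other nidogen, had 12.07 against 11.04 and 11.58. Endothelial markers had their highest signal in the same animal, control 2, for 7 of 13 genes, and their mean signal was 7.30 to 8.20 in control, 7.75 to 8.18 in stimulated and 7.50 to 7.93 in superovulated animals. Their part in the result was not tested.

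For LAMC1, the gamma chain shared by most laminins, the probe sets disagreed. Its brightest probe set gave 0.04 for superovulated minus stimulated. The 4 next in brightness, with means from 5.35 to 7.72, gave 0.72 to 1.19, and the dimmest gave -0.02. The cause was not tested, and the LAMC1 value depends on the probe set used.

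Elastic fibre genes went with the opposite sign to fibrillar collagens against control in superovulated animals, with a median of -0.14 and 5 of 7 negative, and had a median of -0.19 in stimulated animals with 6 of 7 negative. The stimulated median is the value of MFAP4, whose signals of 2.09 to 2.56 lay below the array medians. The 6 negative genes ranged from -0.93 for MFAP2 to -0.05 for the dim ELN and -0.01 for FBLN5. The superovulated median turned to 0.02 without control 1, to 0.02 without superovulated 1 and to 0.11 without superovulated 3. Superovulated minus stimulated had a median of 0.03, again the value of MFAP4, and of -0.10 without superovulated 2. The difference between roles was not tested, and superovulated 2 deviated less here: the median deviation of the role's genes from their own means was 0.15 in that animal, against 0.66 for fibrillar collagens.

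FBLN1 encodes fibulin-1, a glycoprotein of elastic fibres and basement membranes, and had the smallest p of all matrix genes against control. Its signals were 11.54, 11.30 and 11.63 in control, 11.08, 10.81 and 10.70 in stimulated, and 10.76, 10.77 and 11.11 in superovulated animals. All 6 treated animals lay below all 3 controls. Stimulated minus control was -0.63 (SE 0.14, unadjusted p = 0.00256, adjusted p = 0.528 in limma with Benjamini-Hochberg adjustment). Superovulated minus control, which shares those controls, was -0.61 (SE 0.14, unadjusted p = 0.00296, adjusted p = 0.672 by the same test). The 2 treated groups differed by 0.02 (SE 0.14). A second FBLN1 probe set gave -0.63 for stimulated minus control and -0.18 (SE 0.29) for superovulated minus control, so the superovulated difference stood in 1 probe set of 2.

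MFAP5, a glycoprotein of microfibrils, moved with the individual animals. It had 8.31, 9.43 and 9.90 in control, 8.40, 9.59 and 8.00 in stimulated, and 9.58, 11.68 and 9.84 in superovulated animals. Superovulated 2 was clear of all other animals, and stimulated 2 lay just above superovulated 1. Superovulated minus stimulated was 1.71 (SE 0.68, unadjusted p = 0.0368, adjusted p = 0.495 in limma with Benjamini-Hochberg adjustment), and 1.05 without superovulated 2. It missed an unadjusted p of 0.05 without that animal (unadjusted p = 0.117), without stimulated 1 (unadjusted p = 0.0937), without stimulated 3 (unadjusted p = 0.117) and without control 2 (unadjusted p = 0.0508) in limma's test. FBN1, the fibrillin of microfibrils, had 11.85, 12.09 and 11.94 in control, 11.50, 12.44 and 12.43 in stimulated, and 12.11, 12.20 and 11.86 in superovulated animals, with groups that overlapped. ELN itself stayed dim, at 2.56 to 3.09, as did MFAP4 at 2.09 to 2.56.

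**Figure D3:**
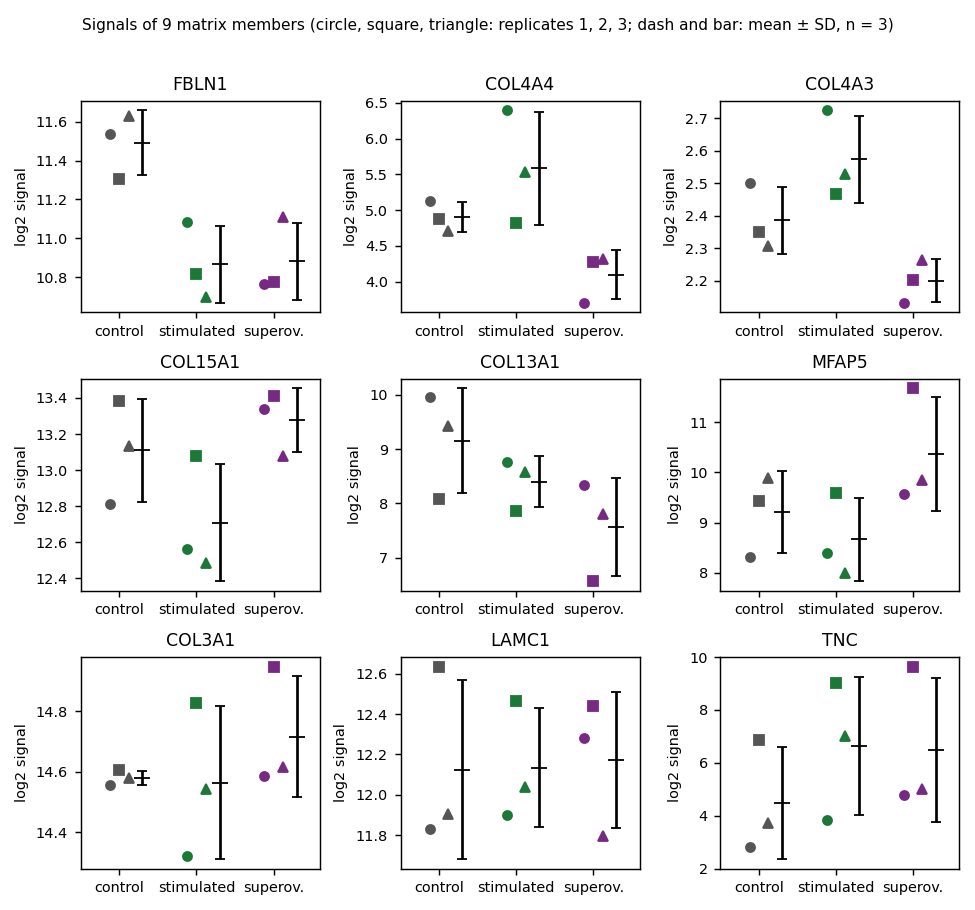
Log2 signal of selected matrix genes in each animal (points), for 9 genes, by group, with circle, square and triangle for replicates 1, 2 and 3 and a dash with a bar for the mean ± SD (n = 3). Each panel has its own scale, which does not start at 0. All treated animals lie below the controls for FBLN1 and all superovulated animals below the others for COL4A4, while for TNC the squares stand highest in each group.

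Proteoglycans, which bind fibrils and growth factors, had a median of 0.20 for superovulated minus control and 0.30 for superovulated minus stimulated, with 5 of 6 positive in each and 0 at an unadjusted p under 0.05. The first was -0.04 without superovulated 2. The second was -0.01, with 3 of 6 positive, without stimulated 1, 0.12 without superovulated 2 and 0.49 without stimulated 2. DCN, decorin, which coats collagen fibrils, had 13.28, 13.41 and 13.31 in control, 13.15, 13.64 and 13.50 in stimulated, and 13.13, 13.87 and 13.35 in superovulated animals. The lowest animal, superovulated 1, and the highest, superovulated 2, came from the same group. VCAN, versican, a large proteoglycan of provisional matrix, ranged over 2.49 log2 units, from 8.81 in stimulated 1 to 11.30 in control 2. BGN, biglycan, was lowest in control 1 at 7.30 and highest in stimulated 2 at 9.05.

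Matricellular proteins signal to cells more than they bear load. Their role here also holds fibronectin (FN1) and other matrix proteins such as MGP. Superovulated 2 was the highest array for 7 of the 9 genes of the role. Their median was 0.20 for superovulated minus control and 0.06 without that animal, and 0.42 without superovulated 3. MGP, matrix Gla protein, an inhibitor of calcification, had 14.22, 14.55 and 14.30 in control, 14.12, 14.52 and 14.06 in stimulated, and 14.27, 14.59 and 14.06 in superovulated animals. Animal 2 was the highest in each group, and the groups overlapped. TNC, tenascin-C, a protein of tissue remodelling, varied over 6.82 log2 units, the widest range of the 57 genes. It had 2.82, 6.85 and 3.73 in control, 3.84, 9.02 and 7.01 in stimulated, and 4.79, 9.64 and 5.02 in superovulated animals. The difference from control was 2.16 (SE 1.79) in stimulated and 2.02 (SE 1.79) in superovulated animals, close to its error.

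THBS2, a thrombospondin that restrains vessel growth, had 9.55, 10.65 and 9.87 in control, 9.95, 11.13 and 10.93 in stimulated, and 10.53, 11.31 and 10.53 in superovulated animals. Control 2 lay inside both treated ranges, and superovulated minus control was 0.77 (SE 0.40). THBS1, its relative, which activates TGF-beta, had 0.76 (SE 0.44) by its brightest probe set. Its other probe sets ranged from -0.07 to 2.10 in that comparison, so no value is given for the gene as a whole. POSTN, periostin, followed the animals numbered 2, at 11.06, 11.45 and 11.54, against 9.83 to 10.39 in the other 6.

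Crosslinking and procollagen-processing genes had positive medians against control, 0.28 in stimulated and 0.42 in superovulated animals, with 3 of 3 genes positive in each. The first turned to -0.19, with 1 of 3 positive, without stimulated 2 and was 0.68 without stimulated 1. The second was 0.03 without superovulated 2. PCOLCE, which enhances the trimming of procollagen, had 10.95, 11.42 and 11.04 in control, 10.57, 12.10 and 11.28 in stimulated, and 11.09, 12.10 and 11.47 in superovulated animals. Stimulated 2 and superovulated 2 were level at the top and stimulated 1 at the bottom. LOX, the enzyme that starts collagen and elastin crosslinks, had 5.33, 5.50 and 5.43 in control, 4.89, 6.63 and 5.56 in stimulated, and 6.31, 7.45 and 4.57 in superovulated animals. The treated animals spread to either side of the 3 controls.

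Of the fibroblast surface genes, PDGFRA, the receptor that marks many stromal fibroblasts, had 8.30, 8.51 and 9.06 in control, 6.09, 8.61 and 6.77 in stimulated, and 9.25, 11.14 and 7.03 in superovulated animals. Superovulated minus stimulated was 1.99 (SE 1.02, unadjusted p = 0.0889 in limma's test), with superovulated 3 below stimulated 2, and 0.99 without superovulated 2. FAP, a protease of activated fibroblasts, had 5.67, 6.58 and 6.93 in control, 5.06, 8.34 and 6.70 in stimulated, and 6.33, 10.48 and 6.92 in superovulated animals. The value of 10.48 in superovulated 2 could also be read as 1.05, since its decimal mark had to be restored. THY1, a further surface marker of fibroblasts, went the other way and was lowest in superovulated 2, at 5.52 against 5.75 to 6.37.

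**Figure D4:**
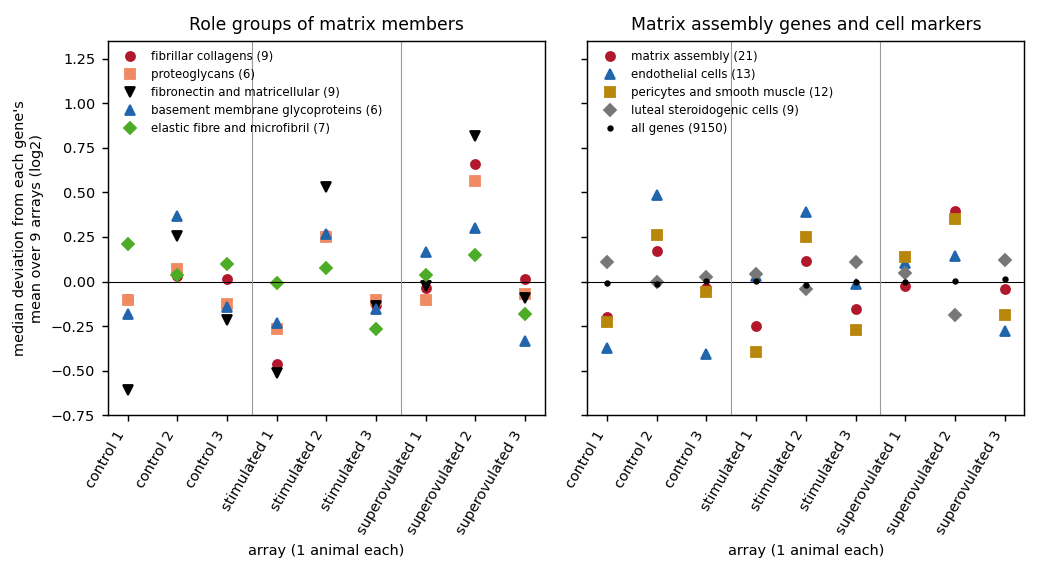
Median deviation (log2) of the genes of each role from their own means over the 9 arrays, by animal, with 5 role groups on the left and matrix assembly genes, 3 marker lists and all genes on the right. Fibrillar collagens reach 0.66 in superovulated 2 and -0.46 in stimulated 1, and basement membrane glycoproteins peak at 0.37 in control 2.

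Genes that assemble the matrix, a list of 21 measured genes of which none is among the 57, showed the same animals at the extremes: superovulated 2 was the highest for 15 and stimulated 1 the lowest for 8. At an unadjusted p under 0.05, 1 was higher and 1 lower in stimulated than in control animals, 0 differed between superovulated and control animals, and 3 were higher and 1 lower in superovulated than in stimulated animals. These are 9.52%, 0% and 19% of the list, against 7.28%, 5.27% and 9.07% of all genes, and nothing is read from counts this small. P4HA3, a prolyl hydroxylase subunit needed for stable collagen, had 7.54, 7.54 and 8.18 in control, 6.24, 6.81 and 6.14 in stimulated, and 7.35, 8.27 and 8.26 in superovulated animals. All stimulated animals lay below all others, with -1.36 (SE 0.31, unadjusted p = 0.00244, adjusted p = 0.527) against control by limma with Benjamini-Hochberg adjustment. Superovulated minus stimulated was 1.56 (SE 0.31, unadjusted p = 0.00107, adjusted p = 0.324) by the same test. PLOD1, a lysyl hydroxylase, gave 0.23 (SE 0.06) for stimulated minus control. SEC23A, a coat protein for the export of procollagen, gave 0.42 (SE 0.12) for superovulated minus stimulated.

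Of 15 matrix receptors, 1 was higher in stimulated and 2 in superovulated animals than in control at an unadjusted p under 0.05, and 1 was lower in superovulated than in stimulated animals. These are 6.67%, 13.3% and 6.67% of the list, against 7.28%, 5.27% and 9.07% of all genes. CD36, a receptor for thrombospondin and lipids, had 8.83, 9.26 and 8.85 in control, 9.56, 10.13 and 9.96 in stimulated, and 8.79, 9.26 and 9.31 in superovulated animals. All stimulated animals lay above all others, with 0.90 (SE 0.20, unadjusted p = 0.00231, adjusted p = 0.522 in limma with Benjamini-Hochberg adjustment) against control. CD44, the hyaluronan receptor, gave 2.12 (SE 0.81) for superovulated minus control, and ITGA3, an integrin chain for laminin, 0.26 (SE 0.10).

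Markers of other cells also varied between animals and groups. CD36 and CD44 are also expressed by macrophages, but CD36 overlapped between superovulated and control animals. Macrophage and myeloid markers were higher in stimulated than in control animals for 11 of 11 genes, 8 of them at an unadjusted p under 0.05 (72.7%, against 7.28% of all genes). They were also higher in superovulated than in control animals for 11 of 11, 4 of them at that threshold (36.4%, against 5.27%), and 0 passed after adjustment in either comparison. Their mean signal was 5.05 to 6.35 in control, 6.76 to 8.08 in stimulated and 6.55 to 7.72 in superovulated animals. T and NK cell markers were higher in stimulated than in control animals for 9 of 10 genes, 3 of them at an unadjusted p under 0.05 (30%, against 7.28% of all genes). They were highest in stimulated 1 for 7 of 10, the animal in which 20 of the 57 matrix genes were lowest, with mean signals of 3.14 to 3.61, 3.46 to 4.51 and 3.28 to 3.64 in the 3 groups. Markers of pericytes and smooth muscle were highest in superovulated 2 for 7 of 12 genes and lowest in stimulated 1 for 6, the same animals as for the matrix genes, with mean signals of 8.51 to 9.18, 8.40 to 9.08 and 8.56 to 9.26 in the 3 groups. Markers of surface epithelium and oviduct averaged 3.14 to 3.35, 3.19 to 3.29 and 3.18 to 4.02, with the highest value in superovulated 2. Array signals have no true 0, so none of these markers could be called absent. The part of these cells in the matrix values was not tested.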

How the data were processed

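Luteal total RNA of 9 cows was labelled as biotinylated cRNA for 1 Affymetrix array each, per the labels' protocols. How probes were summarised and arrays normalised, and on which log base, is not given in the sources used here. The deposited values are in another, non-standard form: runs of digits that have lost their decimal mark. The mark was restored under a limit of 16, with 15.5% of cells open to 2 readings. Of the 57 matrix genes, 21 had no open run, 12 were settled by their other arrays and 24 by their spread at a posterior of 0.95. Over all probe sets 24 stayed undecided and were left out. Among probe sets settled by their spread, 0.521 wrong readings were expected by that posterior. This figure does not cover probe sets settled by their other arrays. The restored values, 0.852 to 15.4, were read as log2 signals because of that range. No further normalisation was applied. Precision is limited by having 3 arrays per group.

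Limma 3.58.1 in R 4.3.3 fitted 23992 probe sets on all 9 arrays, with 1 mean per group, 6 residual degrees of freedom, 2-sided tests and Benjamini-Hochberg adjustment. Only the group fit was tested on simulated data, with independent noise and known fold changes. That run did not cover the restored decimal marks, the choice of probe sets, the block or deviations that genes share within an animal. An exact permutation test of 3 against 3 cannot go below 0.1 and was not used. Genes were named from the probe table, and no coordinates were used.

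Values on each animal are given for matrix genes with an unadjusted p under 0.05 in any comparison, and for the brightest probe set of each role. The upper limits set on the number of the former were not reached. The 3 assembly genes and 3 receptors with the smallest F test p are also named. Of these, P4HA3 and CD36 have values on each animal. PLOD1, SEC23A, CD44 and ITGA3 have only a difference with its SE, which does not show how single animals bear on it. All other genes named were chosen after their values were seen. The members and lists were chosen with earlier results of these data known. The labels do not say what a replicate number stands for. Deviations from group means correlated at 0.202, 0.376 and 0.153 between same-numbered stimulated and superovulated animals, so these were treated as paired. Between control and stimulated animals the values were 0.160, 0.279 and -0.0296, and between control and superovulated animals 0.0849, 0.345 and 0.155. The lowest of these, -0.0296 and 0.0849, were taken as too low, so the controls were not treated as paired. This line was drawn on these same data, and no label bears it out. The blocked fit still gave the controls a block, so its comparisons with control are alternatives only.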

Additional observations from a re-analysis of the deposited data

How the results depend on the processing

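No sign of a called value turned. Of 7 member differences at an unadjusted p under 0.05, FBLN1 (stimulated minus control), COL4A3 and COL4A4 kept their side in every alternative run that held them. The run without the dimmer probe sets left out COL4A3, and that with no open digit run left out FBLN1. With all probe sets of a gene averaged, COL4A3 shrank to -0.17 (unadjusted p = 0.0463) and COL4A4 to -0.72 (unadjusted p = 0.00578) in limma's test. FBLN1 (superovulated minus control) lost it when all probe sets of the gene were averaged (-0.39, unadjusted p = 0.0895 in limma's test). COL13A1 lost it in 4 of 18 alternatives, COL15A1 in 4 of 17 and MFAP5 in 4 of 17. Between stimulated and control animals the count of matrix genes at that threshold was 1. Over probe sets with no open digit run, which leave out FBLN1, it was 0. It was 2 with a trended robust variance, 7 with the replicate block and 1 to 8 leaving out 1 animal. Without the 3 animals numbered 2, an alternative chosen after seeing the data, it was 9 of 57. That share was larger than the 8.24% of all genes. Between superovulated and control animals the count, 2, was 1 with no open run, 1 with the mean of probe sets, 8 with the replicate block and 1 to 4 leaving out 1 animal. Under the block all genes stood at 10.3% and 8.31% in these comparisons, smaller shares than 7 and 8 of 57. The control animals were not treated as paired, so these blocked counts are alternatives only. Between superovulated and stimulated animals the count, 4, was 2 with no open run, 9 with the block and 2 to 10 leaving out 1 animal. Of probe sets called after adjustment, the F test count, 1, was 0 without the animals numbered 2 and 1 to 2 leaving out 1 animal. For stimulated against control the count, 1, was 3 with the block, 0 without the animals numbered 2 and 0 to 4 leaving out 1. For superovulated against control, 0 (1488 at an unadjusted p under 0.05 in limma), it was 1 with only these groups fitted and 0 to 1 leaving out 1. For superovulated against stimulated, 1, it was 2 with median centring, with quantile normalisation and with no open run, 0 without the animals numbered 2 and 1 to 3 leaving out 1. Counts of matrix genes with no share of all genes beside them are not read as results about the matrix genes. The causes were not tested.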
